A study of Mus musculus with 8 samples.

Results

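The plasminogen activators, matrix proteases and inhibitors described here are 9 of the 24421 rows of a table of read counts from brain endothelial cells of mouse embryos. They were taken by gene symbol and by no measured value: the plasminogen activators Plat and Plau, the urokinase receptor Plaur, the matrix proteases Mmp14, Mmp15 and Adamts1, and the metalloprotease inhibitors Timp1, Timp2 and Timp3. All 9 symbols had a row, and all 9 passed the filter on low counts that left 13540 genes for testing. The study asks how endothelial cells of the embryonic brain differ when they lack Flvcr2, a gene for a membrane transporter. RNA came from 4 libraries of Flvcr2 knockout cells (labelled knock out) and 4 of Flvcr2 heterozygous cells (labelled heterzygote), all of strain C57Bl6 from brains at stage E14.5. Both genotypes carry the mutant allele, from which GFP is made, and were sorted as GFP-positive and CD31-positive cells, with 2000 to 5000 cells a library; no wild-type library was analysed here. The labels do not tie libraries to embryos, so a p-value covers the spread between libraries, which may be partly technical.

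Cells reshape the matrix around them with enzymes held at or near their surface. Tissue-type and urokinase-type plasminogen activators (tPA from Plat and uPA from Plau) cut plasminogen into plasmin, and the receptor uPAR, encoded by Plaur, holds uPA on the cell surface. The membrane-type matrix metalloproteases of Mmp14 and Mmp15 and the secreted protease of Adamts1 cut matrix proteins and proteoglycans directly. TIMP proteins block metalloproteases, and TIMP-2 is also the adaptor through which MT1-MMP, the product of Mmp14, activates pro-MMP-2. In growing vessels these enzymes are known for loosening basement membrane at sprouts, and tPA is also a main starter of clot lysis.

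Of the 9 genes, Plaur was higher and Timp2 lower in knockout than in heterozygous cells, and the other 7 did not pass the test. The test was edgeR's quasi-likelihood F-test on counts with Benjamini-Hochberg adjustment over all 13540 tested genes, and a gene is called here at an adjusted p under 0.05. The same rule called 9.55% of all tested genes, 5.53% as higher and 4.02% as lower. Log2 fold changes were above 0 for 8 of 9 genes, against 47.9% over all tested genes. Their median was 0.76, against -0.03 over all tested genes. At an unadjusted p under 0.05 there were 7 of 9 genes, against 25.6% of all tested genes. The genotypes did not overlap in CPM (read counts scaled to a common library size) for 4 of the 9 genes, 3 higher and 1 lower in knockout, against 17.6% of all tested genes (9.7% higher and 7.9% lower).

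Total counts ran from 12.1 to 35.9 M in knockout and from 9.11 to 22.6 M in heterozygous libraries (21.7 ± 10.1 and 14.8 ± 6.62 M, SD, n = 4 each; two-sided exact permutation test, p = 0.314, smallest possible p 0.0286). Flvcr2, whose row carries the symbol Mfsd7c, had 227 to 393 CPM in knockout and 276 to 578 CPM in heterozygous libraries. Its log2 fold change of -0.50 was not called (edgeR adjusted p = 0.209), and since the deleted part of the gene is unknown here, it does not check the labels. All 12 endothelial markers on the list used were counted in every library, and 1 of them was called, Emcn, higher in knockout. For 3 of the 12, Esam, Emcn and Eng, every knockout library was above every heterozygous one, against 9.7% of all tested genes. The 12 markers summed to 9308 to 13137 CPM in knockout and 6890 to 12089 CPM in heterozygous libraries, and these ranges overlapped. Pecam1, which encodes the CD31 used for the sort, had 857 ± 206 CPM in knockout and 524 ± 151 CPM in heterozygous libraries (edgeR adjusted p = 0.0936). Xist, transcribed in female cells, was at 1 count in knockout 1 and 0 counts in heterozygous 2. Ddx3y, a gene of the Y chromosome, had 914 and 331 counts in these libraries. It had 28, 56 and 6 counts in heterozygous 3, heterozygous 4 and knockout 4, where Xist had 442, 861 and 1135 counts. In the remaining libraries Ddx3y was at 0. Whether any library mixes embryos was not tested. Heterozygous 1 and knockout 2 had stood at the ends of the main axis of variation in an earlier analysis of these data. Results are therefore also given without this pair, and without heterozygous 2 and knockout 1, the pair with almost no Xist. Markers of other cell types were present as well, and 8 of 12 neuron, 3 of 12 radial glia and 2 of 11 tested pericyte genes were called lower in knockout. In bulk RNA, fewer cells of a type and less RNA per cell cannot be told apart.

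The promoters of the called genes Plaur and Timp2 are printed here with that of Timp3, an inhibitor of the same family whose fold change had the opposite sign to that of Timp2. RefSeq windows of 300 bases (build GRCm38.p6, 250 before to 50 after the annotated start) were found for 7 of the 9 genes; Plat and Plau had none. The windows lie at chr7:24462233-24462532 on the plus strand for Plaur, chr11:118355362-118355661 on the minus strand for Timp2 and chr10:86300162-86300461 on the plus strand for Timp3. Capitals mark exact matches, on either strand, to the motifs named in the text that follows.
Plaur: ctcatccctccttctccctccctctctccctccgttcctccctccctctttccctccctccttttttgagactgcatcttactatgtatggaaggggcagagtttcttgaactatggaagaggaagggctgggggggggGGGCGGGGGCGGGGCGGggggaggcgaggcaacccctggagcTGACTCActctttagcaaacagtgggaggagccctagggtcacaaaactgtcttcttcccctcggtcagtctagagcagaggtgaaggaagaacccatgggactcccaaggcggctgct
Timp2: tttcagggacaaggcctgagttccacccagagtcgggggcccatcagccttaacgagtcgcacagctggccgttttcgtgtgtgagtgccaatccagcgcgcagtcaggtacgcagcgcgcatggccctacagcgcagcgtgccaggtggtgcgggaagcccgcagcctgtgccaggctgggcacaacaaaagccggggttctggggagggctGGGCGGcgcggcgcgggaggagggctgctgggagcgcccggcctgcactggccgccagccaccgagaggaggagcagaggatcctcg
Timp3: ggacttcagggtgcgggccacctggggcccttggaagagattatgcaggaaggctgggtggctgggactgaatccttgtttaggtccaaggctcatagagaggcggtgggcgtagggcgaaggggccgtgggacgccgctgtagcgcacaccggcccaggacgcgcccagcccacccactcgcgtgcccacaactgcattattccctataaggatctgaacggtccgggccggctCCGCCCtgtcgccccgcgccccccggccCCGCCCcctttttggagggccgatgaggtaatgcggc

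The Plaur window held an AP-1 motif, TGANTCA, which starts 69 bases before the annotated start. It was the only window of the 7 with this motif, which 7.81% of all 32851 promoter windows of the table held. The 3 copies of the Sp1 motif GGGCGG lie just upstream of it, at -111, -105 and -100, and the last 2 share 1 base. All 7 windows held GGGCGG on at least 1 strand, against 35.7% of all windows; the Timp2 window had 1 match at -37 and the Timp3 window 2 matches, at -15 and 14. The Timp1 window held the CRE core TGACGT (7.51% of all windows), overlapping the hypoxia response core ACGTG (19.6%), and the TEAD motif GGAATG (14.7%). ACGTG was also in the Mmp14 window, and the TATA box TATAAA (13.6%) in the Adamts1 window. The ETS core CCGGAA (14.9%) and the ATF4 element TGATGNAA (3.97%) had no match in the 7 windows. These are matches of letters, and no binding was measured.

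Plaur (Entrez 18793) maps to the plus strand of chromosome 7, 24462484 to 24475968 (GRCm38, as for the other coordinates). Knockout libraries 1 to 4 had 229, 132, 179 and 179.8 CPM of this receptor gene, and heterozygous libraries 1 to 4 had 29.3, 43.4, 66.1 and 38.4 CPM. Every knockout library was above every heterozygous one, and the lowest knockout value was that of library 2. The means were 180.1 ± 39.8 CPM in knockout and 44.3 ± 15.7 CPM in heterozygous libraries (SD, n = 4 each), a 4.05-fold rise (log2 fold change 2.02 ± 0.26, SE; edgeR adjusted p = 0.00191). The call held whichever of the 8 libraries was dropped, and the log2 fold change then ran from 1.86 to 2.28. It was 1.99 without heterozygous 1 and knockout 2 (edgeR adjusted p = 0.00348) and 1.88 without heterozygous 2 and knockout 1 (edgeR adjusted p = 0.0286). Macrophages also make uPAR, and the summed CPM of 12 microglia and macrophage markers ran from 118 to 775 in knockout and from 466 to 1326 in heterozygous libraries. Of these markers, 0 were called higher and 1 lower in knockout, and none was at 0 in any library. The part of macrophages in the Plaur difference was not tested.

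Plat (Entrez 18791; chromosome 8, 22757727 to 22782844, plus strand) encodes tPA. It had 677, 247, 503 and 487 CPM in knockout libraries 1 to 4 and 116, 167, 329 and 246 CPM in heterozygous libraries 1 to 4. The genotypes overlapped through knockout 2, which lay below heterozygous 3 and barely above heterozygous 4. The means were 479 ± 177 CPM in knockout and 215 ± 93.3 CPM in heterozygous libraries, with a log2 fold change of 1.16 ± 0.35 and a 95% confidence interval of 0.39 to 1.92. It was not called (edgeR adjusted p = 0.0614). Plat was called by limma voom (adjusted p = 0.0493) and DESeq2 (adjusted p = 0.00442). By edgeR it was called without knockout 2 (adjusted p = 0.0275) or without heterozygous 3 (adjusted p = 0.0409), and also without heterozygous 1 and knockout 2 together (adjusted p = 0.0299). These were the only 5 of the 18 other settings to call it. Without heterozygous 2 and knockout 1 the log2 fold change was 0.85 (edgeR adjusted p = 0.288).

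Plau (Entrez 18792; chromosome 14, 20836660 to 20843385, plus strand), the gene of uPA and so of the ligand of uPAR, was barely detected. Knockout libraries 1 to 4 had 28, 0, 37 and 21 read counts, 86 in all, and heterozygous libraries 1 to 4 had 0, 13, 0 and 0. With 3 counts as the limit, a count of 0 allows a level of up to 0.261 CPM in knockout 2 and of up to 0.285, 0.128 and 0.166 CPM in heterozygous 1, 3 and 4; such limits cover counting error only. Reads were thus present in 3 of 4 knockout and 1 of 4 heterozygous libraries, and the genotypes overlapped. The log2 fold change of 1.71 had a 95% confidence interval of -1.96 to 5.38 (edgeR adjusted p = 0.567). Heterozygous 3, at 22.6 M total counts, had no Plau reads, and heterozygous 2, at 9.11 M, had 13. Knockout 2, the only knockout library without Plau reads, had the lowest total of its genotype, at 12.1 M. The part of depth in the 0 counts was not tested. The fitted value rested on heterozygous 2: without it all heterozygous libraries were at 0, and the fit gave 7.34 (edgeR adjusted p = 0.105), a value that then depends on the prior count. The highest library, knockout 3, had 2.11 CPM of Plau beside 179 CPM of Plaur.

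**Figure D1:**
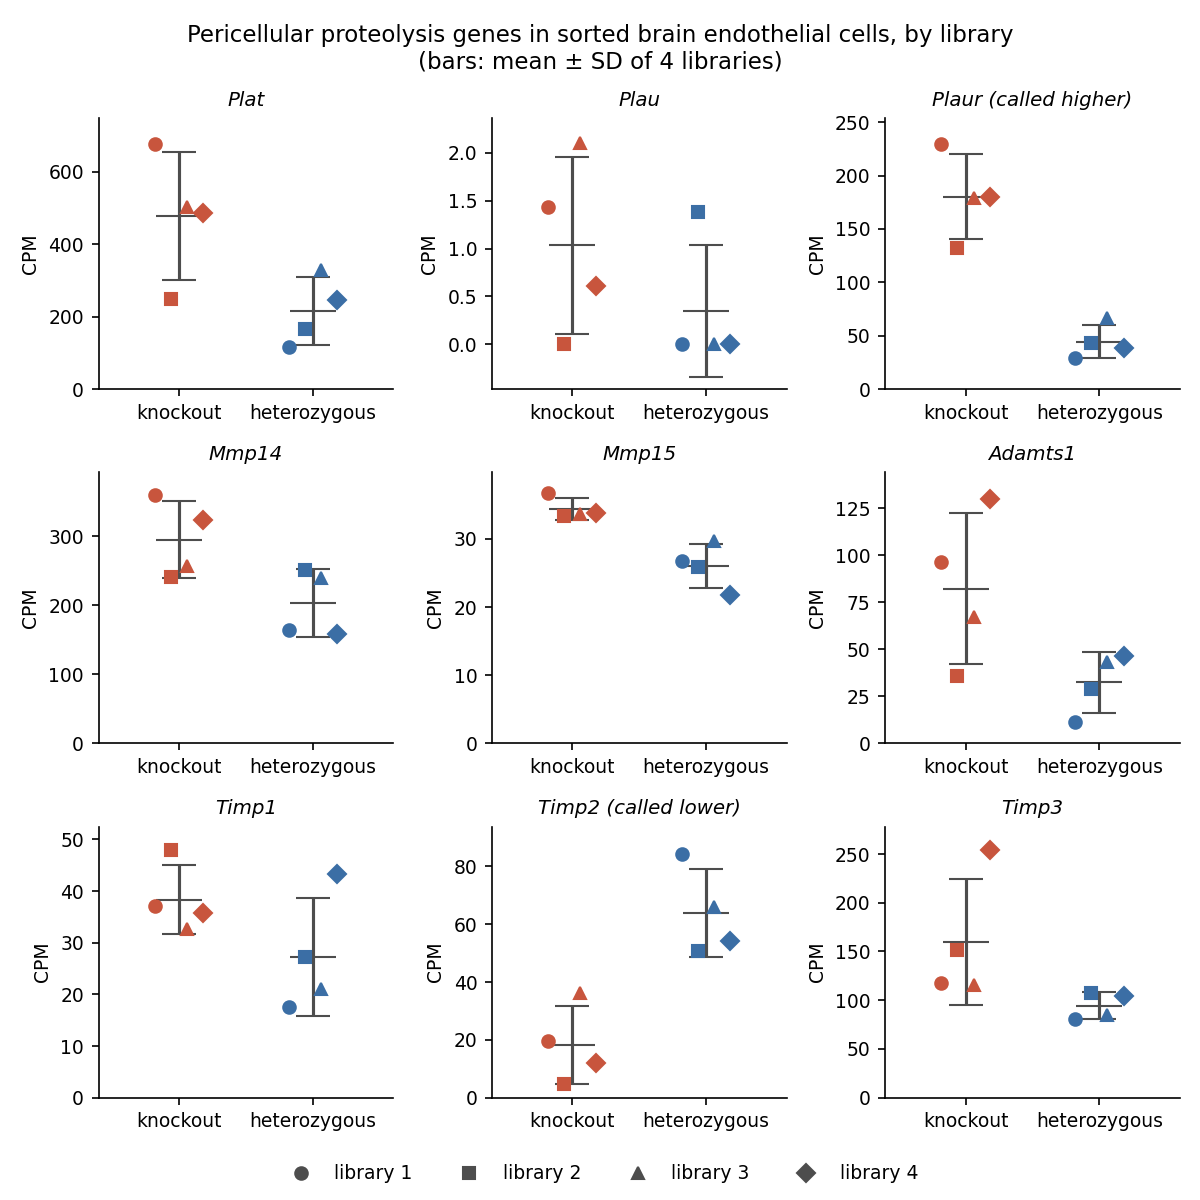
CPM of the 9 genes in each library, knockout left of heterozygous; point shapes give the library number, and bars the mean and SD of 4 libraries (the y axis starts at 0 except for Plau, whose error bar passes below 0). Plaur is higher in all 4 knockout libraries and Timp2 lower in all 4, while Plat, Mmp14 and Adamts1 overlap through knockout library 2.

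Mmp14 (Entrez 17387; chromosome 14, 54431612 to 54445364, plus strand) encodes MT1-MMP, a membrane-anchored collagenase. Its level was 360.2, 240.5, 257 and 324 CPM in knockout libraries 1 to 4 and 164, 251, 239.6 and 158 CPM in heterozygous libraries 1 to 4. Knockout 2 lay below heterozygous 2, so the genotypes overlapped. The log2 fold change was 0.54 ± 0.20, with a 95% confidence interval of 0.10 to 0.98, and the gene was not called (edgeR adjusted p = 0.117). None of the 18 other settings called it.

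Mmp15 (Entrez 17388; chromosome 8, 95352268 to 95375080, plus strand), which encodes the related MT2-MMP, varied least between libraries of a genotype. Knockout libraries 1 to 4 had 36.7, 33.4, 33.7 and 33.7 CPM, and heterozygous libraries 1 to 4 had 26.8, 25.8, 29.7 and 21.8 CPM. Every knockout library was above every heterozygous one. The difference was small, at a log2 fold change of 0.40 ± 0.17 with a 95% confidence interval of 0.03 to 0.78, and was not called (edgeR adjusted p = 0.165). In read counts of the same library, Mmp14 stood to Mmp15 at 7.21 to 9.80 in knockout and 6.12 to 9.72 in heterozygous libraries, and these ranges overlapped.

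Adamts1 (Entrez 11504; chromosome 16, 85793827 to 85803113, minus strand) encodes a secreted protease that cuts proteoglycans such as versican. It had 96.2, 35.6, 67.2 and 130.0 CPM in knockout libraries 1 to 4, against 11.1, 28.7, 43.4 and 46.5 CPM in heterozygous libraries 1 to 4. Of the knockout libraries, 3 lay above all heterozygous ones, and knockout 2 lay among them. The log2 fold change was 1.34 ± 0.45 with a 95% confidence interval of 0.34 to 2.33, and the gene was not called (edgeR adjusted p = 0.0915). It was called without knockout 2 (edgeR adjusted p = 0.0467), by DESeq2 (adjusted p = 0.0148) and without heterozygous 1 and knockout 2 together (edgeR adjusted p = 0.0287). These were the only 3 of the 18 other settings to call it. Without heterozygous 2 and knockout 1 the log2 fold change was 1.21 (edgeR adjusted p = 0.297).

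Timp2 (Entrez 21858; chromosome 11, 118301069 to 118355740, minus strand) was the 1 gene of the 9 that fell. Knockout libraries 1 to 4 had 19.5, 4.79, 36.3 and 11.8 CPM, and heterozygous libraries 1 to 4 had 84.4, 50.8, 66.0 and 54.3 CPM. All knockout libraries were below all heterozygous ones, and they spread widely, with knockout 3 highest and knockout 2 lowest. The means were 18.1 ± 13.5 CPM in knockout and 63.9 ± 15.2 CPM in heterozygous libraries, a 3.52-fold difference (log2 fold change -1.82 ± 0.48; edgeR adjusted p = 0.0385). The call was lost without knockout 1 or 4 (edgeR adjusted p = 0.0908 and 0.103) and without heterozygous 1, 2, 3 or 4 (0.0971, 0.0606, 0.0781 and 0.0589), with log2 fold changes of -1.51 to -2.39 as each of the 8 libraries was dropped. It was also lost without heterozygous 1 and knockout 2 (adjusted p = 0.0669) and without heterozygous 2 and knockout 1 (adjusted p = 0.130).

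Marker sums of other cell types were set beside Timp2 library by library, and the lists differed in how far they kept its order. Orders of 4 libraries a genotype are given as a description, and no test was run on them. The sum of 12 neuron markers was 222, 97.6, 295 and 96.3 CPM in knockout libraries 1 to 4 and 1935, 298, 814 and 452 CPM in heterozygous libraries 1 to 4. Of these markers 8 were called lower and 0 higher, and at most 1 was at 0 in a library. The genotypes did not overlap in this sum, as in Timp2, and heterozygous libraries ran in the same order in both, from 1 through 3 and 4 to 2. Among knockout libraries, 3 was highest and 1 next in both. Knockout 2 and 4 were nearly level in the neuron sum, at 97.6 and 96.3 CPM, and had the opposite order in Timp2. The 12 pericyte and smooth muscle markers summed to 55.5, 169, 592 and 41.0 CPM in knockout libraries 1 to 4 and to 374, 424, 406 and 519 CPM in heterozygous libraries 1 to 4. Of 11 tested, 2 were called lower and 0 higher, with 0 to 2 markers at 0 in a knockout and 1 in each heterozygous library. This sum did not keep the order of Timp2: heterozygous 1, highest in Timp2, had the lowest pericyte sum of its genotype, and knockout 2, lowest in Timp2, had the second-highest of its own. The 12 fibroblast and meninges markers summed to 137, 174, 683 and 116 CPM in knockout libraries 1 to 4 and to 474, 257, 450 and 282 CPM in heterozygous libraries 1 to 4, with 2 called lower and 0 to 2 at 0 in a knockout library. In this sum too, heterozygous libraries ran in the order of Timp2, from 1 through 3 and 4 to 2. The genotypes overlapped in it, and knockout 2, lowest in Timp2, was second-highest of its own. In knockout 3 the pericyte and fibroblast sums were above those of every heterozygous library, while its Timp2 was below all of them. Vtn alone gave 412 CPM of that pericyte sum of 592 CPM, and it had 181 to 235 CPM in heterozygous libraries. The markers called lower did not follow these sums in knockout 3. Twist1 and Tbx18, of the fibroblast list, had 0.342 and 0.228 CPM there. Heterozygous libraries had 1.28 to 2.44 and 2.97 to 6.08 CPM of them. Cspg4 and Des, of the pericyte list, had 6.38 and 0.399 CPM in knockout 3. Heterozygous libraries had 10.9 to 25.6 and 3.61 to 12.9 CPM of them. The other 9 pericyte and 10 fibroblast markers tested were not called. The radial glia sums ran from 1420 to 1698 CPM in knockout and from 1475 to 1513 CPM in heterozygous libraries, and overlapped. Much of these sums was Vim and Nes, with log2 fold changes of 0.29 and 0.36, not called. The median log2 fold change of the 12 markers was -1.76, and Pax6, Slc1a3 and Lhx2 were called lower, so the sum hides falls of single markers. The 12 erythroid markers summed to 27.1 to 58.4 CPM in knockout and 262 to 629 CPM in heterozygous libraries, without overlap. Of 6 tested, 3 were called lower, and the adult globin genes Hba-a1, Hba-a2, Hbb-bt and Hbb-bs were at 0 in every library. The treatment of multi-mapping reads is not given, so these 0 counts do not show that the transcripts were absent. Microglia sums are given beside Plaur. The part of these cells in the Timp2 difference was not tested.

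**Figure D2:**
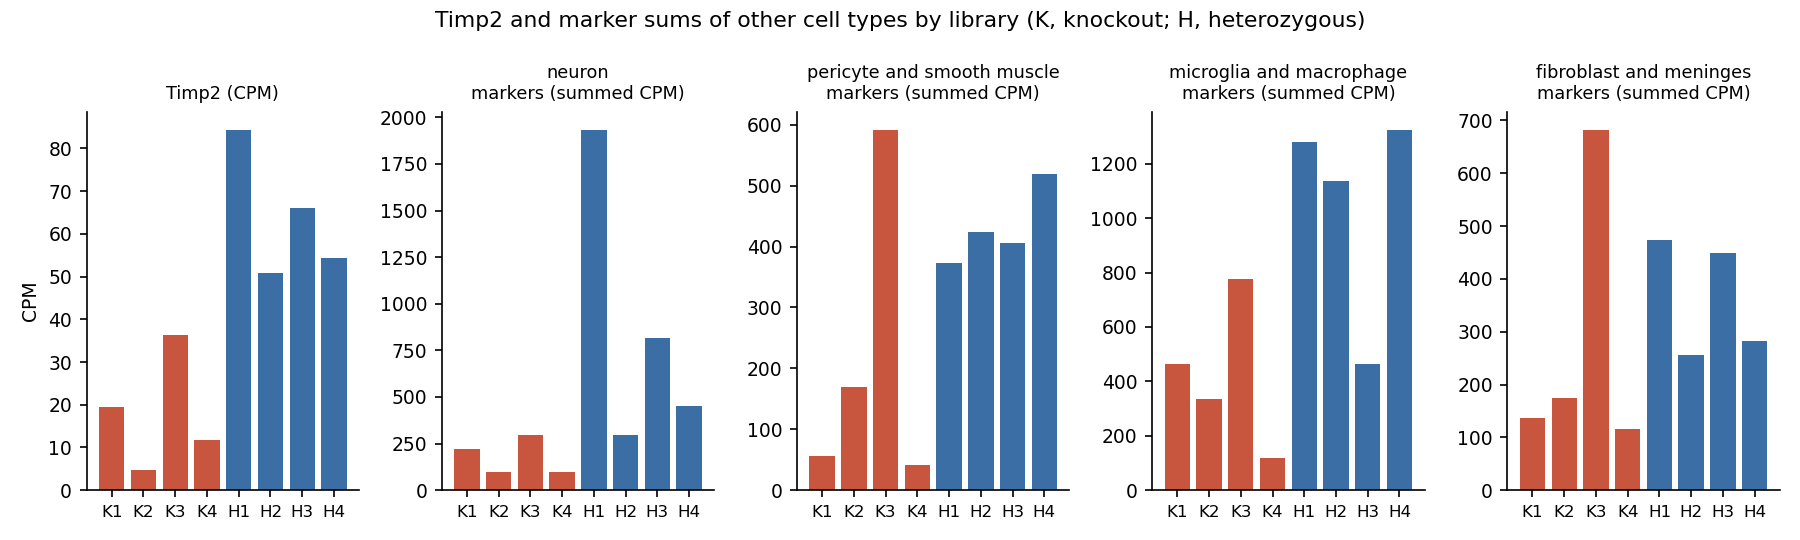
CPM of Timp2 (left panel) and summed CPM of 12 markers each of neurons, pericytes and smooth muscle, microglia and macrophages, and fibroblasts and meninges; 1 bar a library, knockout (K) left of heterozygous (H). Knockout 3 has the highest Timp2 of the knockout libraries, at 36.3 CPM, and the highest sum in each of the 4 marker panels among them. Its pericyte and fibroblast sums, at 592 and 683 CPM, also pass every heterozygous library. Of the 592 CPM, 412 CPM are from Vtn alone. The called markers Twist1 and Tbx18 (fibroblast) and Cspg4 and Des (pericyte) are below every heterozygous library in knockout 3. The part of these cells in the Timp2 difference was not tested.

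Timp3 (Entrez 21859; chromosome 10, 86300372 to 86349506, plus strand) encodes the TIMP that binds to the matrix itself. Its level was 118, 152, 116 and 254 CPM in knockout libraries 1 to 4 and 80.8, 108, 84.9 and 104 CPM in heterozygous libraries 1 to 4. The genotypes did not overlap, and knockout 4 stood above the other knockout libraries. The log2 fold change was 0.76 ± 0.25, with a 95% confidence interval of 0.22 to 1.31, and was not called (edgeR adjusted p = 0.0819). It was 0.45 without knockout 4, and the gene was called without knockout 3 (edgeR adjusted p = 0.0498) and by DESeq2 (adjusted p = 0.0241). These were the only 2 of the 18 other settings to call Timp3. Exons of Syn3 overlap Timp3 on the other strand, and the strand setting of the counting is not given; Syn3 itself had at most 0.511 CPM in a knockout and 4.31 CPM in a heterozygous library.

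Timp1 (Entrez 21857; X chromosome, 20870166 to 20874735, plus strand), a secreted inhibitor of many metalloproteases, had 37.1, 47.9, 32.7 and 35.8 CPM in knockout libraries 1 to 4. Heterozygous libraries 1 to 4 had 17.5, 27.3, 21.1 and 43.2 CPM. The genotypes overlapped through heterozygous 4. Its log2 fold change of 0.49 ± 0.28 had a 95% confidence interval of -0.12 to 1.10 and was not called (edgeR adjusted p = 0.297). It lies within Syn1 on the opposite strand with no shared exon; Syn1, a neuron gene, was called lower in knockout (edgeR adjusted p = 0.0385). None of the 18 other settings called Timp1.

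Ratios of read counts within a library do not depend on how libraries are scaled. They are given as a description, uncorrected for transcript length, to be compared between libraries and not between genes. Mmp14 reads stood to Timp2 reads at 18.5, 50.2, 7.08 and 27.4 in knockout libraries 1 to 4 and at 1.94, 4.94, 3.63 and 2.92 in heterozygous libraries 1 to 4. The 2 genotypes did not overlap in this ratio, whose log2 averaged 4.36 ± 1.19 in knockout and 1.67 ± 0.57 in heterozygous libraries. Timp3 reads stood to Timp2 reads at 3.20 to 31.7 in knockout and 0.957 to 2.12 in heterozygous libraries. Plaur reads stood to Plat reads at 0.339 to 0.533 in knockout and 0.156 to 0.261 in heterozygous libraries, again without overlap. The ratio of Timp1 to Timp3 overlapped, at 0.141 to 0.315 in knockout and 0.216 to 0.415 in heterozygous libraries. Timp2 and Plaur each separated the genotypes in CPM already, so the lack of overlap in ratios that hold them is no separate result.

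Levels of different genes were compared per length, as reads per kilobase of annotated exon, with the CPM scaling (RPKM). In knockout libraries the order was Plat at 76.7 ± 28.3, Plaur at 68.8 ± 15.2, Mmp14 at 49.6 ± 9.46 and Timp1 at 43.2 ± 7.46 RPKM. Timp3 at 19.6 ± 7.94, Adamts1 at 15.5 ± 7.60, Mmp15 at 6.37 ± 0.295, Timp2 at 4.64 ± 3.47 and Plau at 0.438 ± 0.390 RPKM came after them (SD, n = 4). Only the steps between Timp1 and Timp3 and between Timp2 and Plau separated neighbours without overlap of their libraries. In heterozygous libraries the order was Plat, Mmp14, Timp1, Plaur, Timp2, Timp3, Adamts1, Mmp15 and Plau. Plat and Mmp14 had 34.4 ± 14.95 and 34.1 ± 8.19 RPKM there, and each was the higher of the pair in 2 of 4 libraries. Plaur stood at 16.9 ± 5.98 and Timp2 at 16.4 ± 3.89 RPKM in heterozygous libraries. There the steps without overlap were those between Timp3 and Adamts1 and between Mmp15 and Plau.

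**Figure D3:**
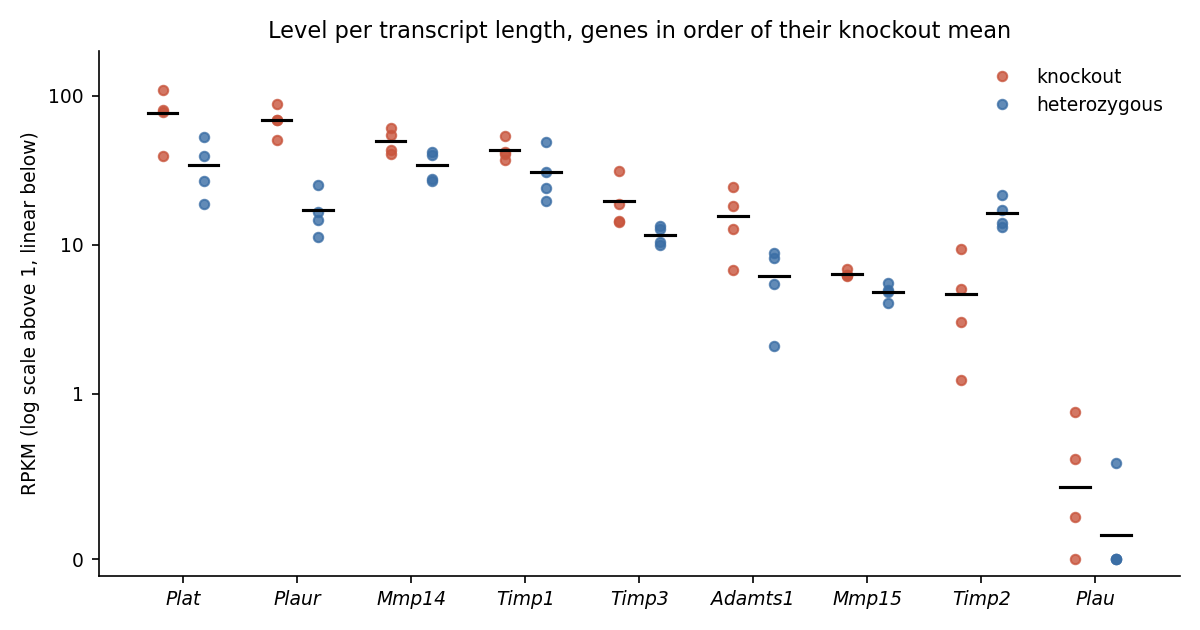
RPKM of the 9 genes, 1 point a library and a black line at the mean of 4, knockout left of heterozygous for each gene, in the order of the knockout means (axis linear below 1 and logarithmic above). Plaur averages 68.8 RPKM in knockout and 16.9 RPKM in heterozygous libraries, and Timp2 4.64 and 16.4 RPKM.

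For the called genes, the most alike patterns over the 8 libraries were sought among 12767 other tested genes, by the root mean square difference of log2 CPM centred on each gene's mean. Nearest to Plaur were Sec24d (0.18), which encodes a coat protein of vesicles that leave the endoplasmic reticulum, Psma8 (0.22), a proteasome subunit gene, and Fam114a1 (0.23). The spread of Plaur itself over the 8 libraries was 1.16 (SD of log2 CPM). Nearest to Timp2, whose own SD was 1.41, were the transcription factor gene Osr1 (0.22), the retinoic acid-binding protein gene Crabp1 (0.29) and Ppp1r1a (0.31), an inhibitor gene of protein phosphatase 1. Sec24d, Psma8 and Fam114a1 were called higher in knockout (edgeR adjusted p = 0.00530, 0.00512 and 7.67e-04), while Osr1, Crabp1 and Ppp1r1a were not called (0.0850, 0.115 and 0.0816). The search used all 8 libraries, so the genotype difference was part of the match, and the calls of these neighbours are no separate evidence.

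The 6 wider lists hold 82 other genes of the same processes, of which 58 were tested. Among them 6 were called higher and 6 lower in knockout, 10.3% each, against 5.53% and 4.02% of all tested genes. Their median log2 fold change was -0.03, as over all tested genes (-0.03). Adamts4 and Tfpi2 kept their calls whichever of the 8 libraries was dropped. The other 10 were called in 1 to 5 of those 8 fits, and each lost its call without knockout 1 and also without knockout 4, where 1 gene was called in each direction.

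Among 16 plasminogen system partners, 9 were tested, 2 fell and 0 rose (median log2 fold change -0.69). Plg, the gene of plasminogen, was at 0 in every library. Serpini1, encoding neuroserpin, the neuronal inhibitor of tPA, had 1.22 ± 1.17 CPM in knockout and 13.3 ± 9.64 CPM in heterozygous libraries (log2 fold change -3.39, edgeR adjusted p = 0.0452). Lrp1, whose product clears activator and inhibitor complexes from the surface, had 9.61, 3.66, 11.2 and 4.85 CPM in knockout libraries 1 to 4 and 26.2, 12.3, 24.8 and 26.0 CPM in heterozygous libraries 1 to 4 (log2 fold change -1.60, adjusted p = 0.0325). The neuron marker sums given beside Timp2 were lower in all 4 knockout libraries than in any heterozygous one, and their part in these falls was not tested.

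Of 16 other matrix metalloproteases, 10 were tested, 1 rose and 1 fell (median log2 fold change -0.61). Mmp17, encoding the GPI-anchored MT4-MMP, had 56.8, 5.92, 24.8 and 42.4 CPM in knockout libraries 1 to 4 and 3.99, 6.58, 11.01 and 4.72 CPM in heterozygous libraries 1 to 4. Its rise of 4.91-fold (edgeR adjusted p = 0.0350) rested on 3 knockout libraries, since knockout 2 lay within the heterozygous range. Mmp19 fell 1.75-fold, with 12.6 to 16.6 CPM in knockout and 18.3 to 29.5 CPM in heterozygous libraries (adjusted p = 0.0452).

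Of 18 other ADAMTS protease genes, 10 were tested, 0 rose and 1 fell (median log2 fold change -0.20). That gene, Adamts4, encodes an aggrecanase. Its level was 4.80, 2.61, 5.12 and 4.70 CPM in knockout libraries 1 to 4 and 17.0, 20.9, 25.0 and 21.8 CPM in heterozygous libraries 1 to 4. The genotypes lay far apart, at a 4.89-fold fall (log2 fold change -2.29 ± 0.29; edgeR adjusted p = 0.00196). Adamts1 and Adamts4 thus had fold changes of opposite sign. None of 6 tested genes of 8 membrane ADAM proteases was called (median log2 fold change 0.24). The most abundant, Adam15 and Adam10, had 215 ± 53.3 and 202 ± 34.9 CPM in knockout and 241 ± 48.9 and 196 ± 65.6 CPM in heterozygous libraries.

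Of 12 other regulators of matrix proteases, 11 were tested, 2 rose and 2 fell (median log2 fold change 0.16). Tfpi2, whose product is a Kunitz-type inhibitor of plasmin and other serine proteases, had 58.3, 42.9, 50.3 and 47.4 CPM in knockout libraries 1 to 4 and 6.17, 4.35, 8.07 and 10.9 CPM in heterozygous libraries 1 to 4. No library of either genotype came near the other range, and the rise was 6.67-fold (log2 fold change 2.74 ± 0.28; edgeR adjusted p = 8.34e-04). Pcsk6, a furin-like convertase gene, rose to 18.7 ± 8.78 CPM in knockout, against 1.93 ± 1.88 CPM in heterozygous libraries (adjusted p = 0.0473). Bsg, encoding basigin, known as an inducer of metalloproteases, fell to 1555 ± 246 CPM in knockout, against 3521 ± 1373 CPM in heterozygous libraries (adjusted p = 0.0203). Spock2, a testican gene, fell 2.26-fold (adjusted p = 0.0240).

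Of 12 genes for matrix substrates, all tested, 3 rose and 0 fell (median log2 fold change 0.45). Nid2, encoding nidogen-2 of the basement membrane, had 1178 ± 380 CPM in knockout and 525 ± 159 CPM in heterozygous libraries (edgeR adjusted p = 0.0282). Hspg2, encoding the proteoglycan perlecan, rose 1.85-fold (adjusted p = 0.0244), and Lama4, encoding laminin alpha-4, rose 1.81-fold (adjusted p = 0.0447). All 3 calls were lost without knockout 1, knockout 4, heterozygous 1 or heterozygous 4; over all 8 fits that dropped a library, log2 fold changes ran from 0.68 to 1.37.

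**Figure D4:**
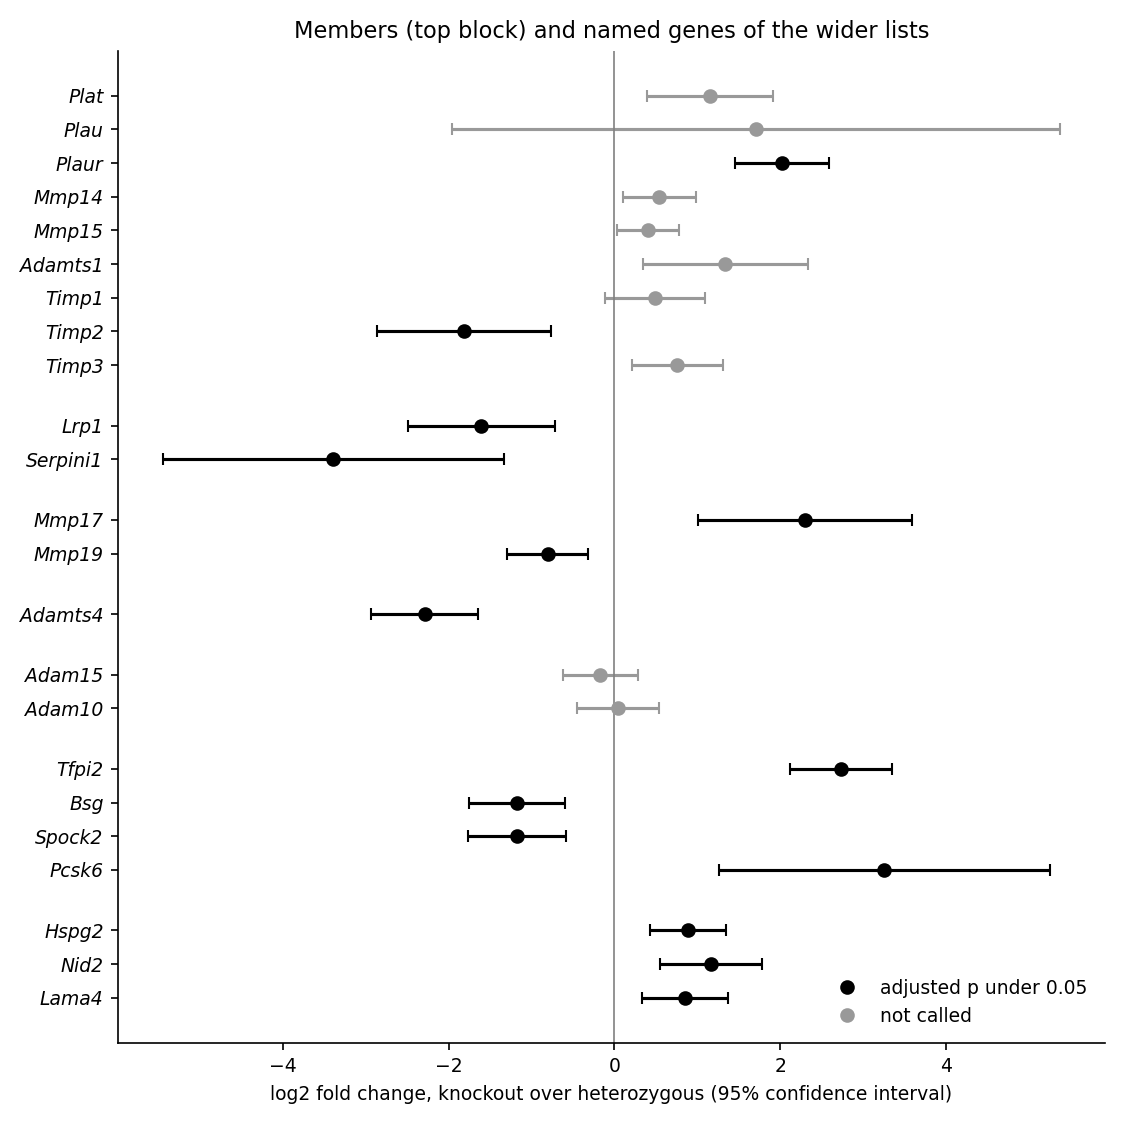
Log2 fold changes (knockout over heterozygous, points) with 95% confidence intervals (lines) for the 9 genes, in the top block, and the named genes of the 6 wider lists, in the blocks under it; black marks genes called at an adjusted p under 0.05. In the top block Plaur (2.02) and Timp2 (-1.82) are called, and Plau has the widest interval.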

How the data were processed

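RNA of FACS-sorted cells was extracted with a micro-scale column kit; complementary DNA was made with SMART-Seq v4 and libraries with Nextera XT, per the labels' protocols. Reads were single-end of 50 nucleotides on a HiSeq4000, with over 40 M reads a sample, per the series design text. The authors deposited raw counts per gene symbol; the submitters' processing notes name TopHat2 0.7, Cufflinks 2.2.1 and mm10. Which program counted reads, with which strand setting and treatment of multi-mapping reads, is not given here. Counts were tested in R 4.3.3 with edgeR 4.0.16: filterByExpr (minimum count 10, total 15), TMM scaling and a quasi-likelihood F-test with robust dispersion, no covariate, and Benjamini-Hochberg adjustment over all 13540 tested genes, which held 99.9% of counts. The SE is the size of the log2 fold change divided by the square root of F. CPM use TMM-scaled library sizes; centred log2 CPM used a prior count of 2. RPKM divide CPM by the summed length of annotated exons in GENCODE M21 (GRCm38, the build of mm10), also the source of coordinates.

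The genes, lists and alternatives were chosen with earlier results of these data known. Named genes are the 9 genes and up to 5 called genes of each wider list, taken by smallest p (with none called, the 2 of highest CPM). The 3 nearest patterns of each called gene of the 9 are named too. Plg, Syn1, Syn3, Xist, Ddx3y, Mfsd7c, all single cell type markers named and the genes under other observations fall outside this rule. The genes under other observations, and the single markers named beside the marker sums, were chosen after their values were seen. No pair of libraries matched within sampling noise: in each genotype chi-square over its degrees of freedom was 27.6 or more. Alternatives were other scalings and filters, DESeq2 1.42.0, limma voom (limma 3.58.1), libraries left out, a block for the replicate number, and dispersion without robust weighting. The fit was tested on simulated data.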

Additional observations from a re-analysis of the deposited data

Results flagged for a closer look

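In 4 of the 46 sets of 4 libraries examined (23 named genes in each genotype), 1 library stood far from the other 3 by Dixon's test; chance flags about 1 in 20 such sets. Plau was at 1.38 CPM in heterozygous 2 and at 0 in the other heterozygous libraries. Mmp15 was at 36.7 CPM in knockout 1 and at 33.4 to 33.7 CPM in the other knockout libraries. Lrp1 was at 12.3 CPM in heterozygous 2 and at 24.8 to 26.2 CPM in the other heterozygous libraries. Adamts4 was at 2.61 CPM in knockout 2 and at 4.70 to 5.12 CPM in the other knockout libraries.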

How the results depend on the processing

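All 9 genes, where tested, kept the sign of their fold change in each of the 18 other settings, and Plaur kept its call in all 18. With library size alone all tested genes had a median log2 fold change of -0.15, a shift of -0.12 from TMM, and 42.6% of called genes were higher, against 57.9%; 8 of the 9 genes still had positive fold changes. DESeq2 called 2229 genes, against 1293, with 4 of the 9 and 11 of the wider genes higher (against 1 and 6). Limma voom called 2 of the 9 higher. Without heterozygous 1 and knockout 2, 842 genes were called, with 3 of the 9 higher and 0 lower. Without heterozygous 2 and knockout 1, 300 genes were called, with 0 of the 9 lower and 1 wider gene in each direction. Leaving out 1 library gave 579 to 1347 called genes, 1 to 3 of the 9 higher, 0 to 1 lower, and 1 to 10 wider genes higher and 1 to 9 lower. Replicate numbers did not pair the libraries (correlation of deviations over 0.1 in 1 of 4 pairs; 2 of 8 libraries correlated best with their own number). With the replicate number as a block, 868 genes were called, 1 of the 9 in each direction and 1 wider gene higher. The log2 fold change of Plau, which no setting called, was 1.71 and became 4.28 with that block, 3.03 with limma voom and 1.12 to 7.34 with 1 library left out; that of Timp1, 0.49, became 0.81 without heterozygous 4. Adam10 changed sign, with log2 fold changes of -0.0731 with library size alone, -0.0358 without heterozygous 2 and knockout 1, and -0.0943 to 0.2979 with 1 library left out. The cause was not tested.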

Other observations

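Genes of the wider lists that the report does not name, chosen after their values were seen, are given here as values. Mmp9, encoding a gelatinase, had 4.498, 13.4, 172 and 4.47 CPM in knockout libraries 1 to 4 and 90.2, 214, 228 and 176 CPM in heterozygous libraries 1 to 4. Knockout 3 thus lay within the heterozygous range and the other 3 knockout libraries far below it, and the gene was not called (log2 fold change -1.87, edgeR adjusted p = 0.308). Mmp2, encoding the protease that MT1-MMP and TIMP-2 activate, had 28.7 ± 8.40 CPM in knockout and 25.0 ± 7.90 CPM in heterozygous libraries (log2 fold change 0.21, not called). Adamts9 had 5.41 to 16.5 CPM in knockout and 0.380 to 4.16 CPM in heterozygous libraries, without overlap, and was not called (log2 fold change 2.27, edgeR adjusted p = 0.0685).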
